A study of Apis mellifera with 6 samples.

Results

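The expression of orb, nanos and egl, genes of maternal RNA handling, was followed through the ovaries of the honeybee, Apis mellifera. They are 3 of the 11169 gene entries in the deposited table and were found by their symbols. They were chosen by their RPKM in queen-less against queen-right workers, because earlier results of the same data showed that, unlike many germline genes, they do not rise when the worker ovary becomes active. Their difference between queen-less and queen-right workers is therefore given as a description, with no test.

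The data set is RNA-seq of whole dissected ovaries, with 6 libraries from 2 pools of each of 3 kinds of female. Queens were about 12 months old and headed colonies as active egg layers. Queen-less workers came from brood frames that had been moved to a nucleus box without a queen, where queen cells were destroyed, and their ovaries were taken 2 to 4 weeks later at an ovary score of 3, the active state. Queen-right workers came from hives with a laying queen and had an ovary score of 0, the inactive state. No worker age or bee genotype was taken from the labels, and every library is a pool of ovaries from several bees, so differences between single bees are averaged out.

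In animal oogenesis many mRNAs are made early, carried to a set place in the oocyte and held silent until their protein is needed. In Drosophila, Egalitarian (the product of egl) binds localization signals in mRNAs and links them, through Bicaudal-D, to the dynein motor that moves cargo along microtubules into the oocyte. Oo18 RNA-binding protein (orb), a member of the CPEB family, binds to the untranslated ends of stored mRNAs and activates their translation through longer poly(A) tails. Nanos, a zinc finger protein, works with Pumilio to repress target mRNAs and is needed for the germline stem cells and for the posterior pattern of the embryo. These roles are known from Drosophila and were not tested here.

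All 3 genes were present in every library, at very different levels. RPKM sets the reads of a gene against a length and the size of the library. Values of different genes can be compared only as far as that length is right, and the counting program is not given. The nanos region is 737 bp, while its current RefSeq gene model spans 7372 bp, so its ranks and ratios are less certain. By RPKM, orb was among the 43 entries with the highest values in every library. It lay between rank 32 and rank 43 of 11169, or within the top 0.38%. The other two lay near the middle of the expressed entries: nanos ranked between 2966 and 4036, and egl between 3931 and 5100. For comparison, the median RPKM over the 8778 entries tested (those reaching 1 RPKM in 2 or more libraries) was 15.16 and 15.37 in queens, 16.12 and 15.98 in queen-less workers and 19.16 and 18.88 in queen-right workers. The 2 genes differ from orb by a factor that depends on the ovary: orb had 19.4 and 23.4 times the RPKM of nanos in queens, 24.3 and 28.2 times in queen-less workers, and 44.5 and 38.0 times in queen-right workers. The ratio of orb to egl was 30.2 and 27.9 in queens, 35.4 and 31.4 in queen-less workers and 63.4 and 51.4 in queen-right workers. Both ratios were higher in each queen-right pool than in any other pool.

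The 6 libraries were of nearly the same depth, the shallowest at 94.2% of the deepest as judged from the ratios of low RPKM values, and the absolute depth is unknown. Across entries, the pools correlated with r = 0.988 in queens, 0.983 in queen-less workers and 0.976 in queen-right workers on the log2 scale (entries are not independent replicates). Fold changes below are on the scale log2(RPKM + 1) after multiplication with the authors' factor per library, which ranged from 0.8557 to 1.0095 and was lowest in the queen-right workers. limma was fitted to all 6 libraries over 8778 entries, with the Benjamini-Hochberg adjustment at a threshold of 0.05. For 1 gene and 2 pools a group, the smallest two-sided p of an exact permutation test is 0.333, and each call therefore depends on limma's pooling of the spread over genes. Without the factors, the median log2 difference of all entries was -0.32 in place of -0.13 for queen-less minus queen-right workers. vas, the germline marker, was at 190.2 and 137.5 RPKM in queens, 193.2 and 201.0 RPKM in queen-less workers and 18.55 and 16.73 RPKM in queen-right workers, so germline RNA was detected in all 6 libraries.

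**Figure D1:**
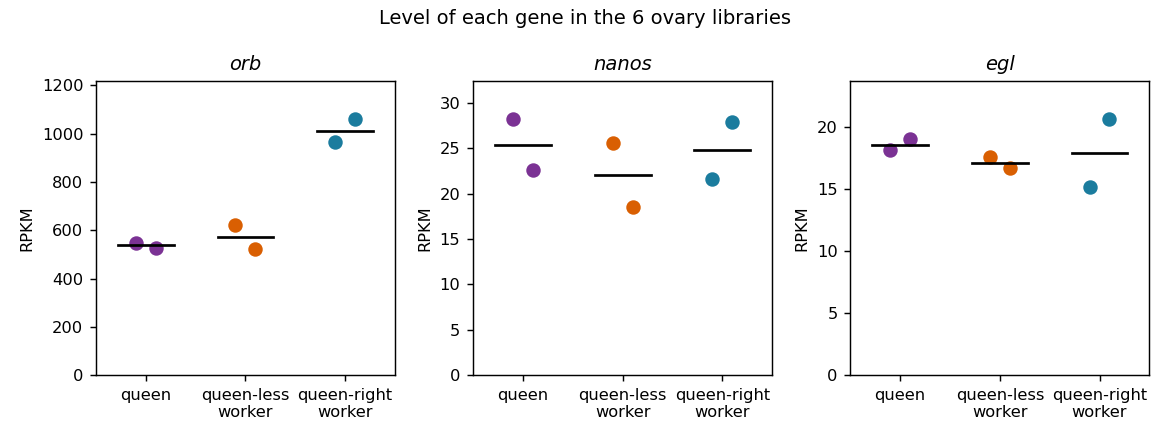
RPKM of orb, nanos and egl (1 panel each, vertical axes from 0) in queen, queen-less worker and queen-right worker ovaries; each point is 1 pooled library and each line the mean of 2. For orb, both queen-right pools (963.01 and 1058.25 RPKM) stand above all other pools, whose highest value was 622.56 RPKM, while the groups of nanos overlap and the queen and queen-less pools of egl lie between the 2 queen-right pools.

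By RPKM, orb, the translation regulator, was the one of the 3 genes whose active and inactive pools did not overlap. Differences from the inactive ovary were common. Against queen-right workers, limma called 6305 of the 8778 entries for queens and 5930 for queen-less workers. The share of entries without overlapping pools is not given here. As the 3 genes were chosen for not rising, nothing is read from orb standing apart from nanos and egl. The RPKM of orb was 547.50 and 528.63 in the queen pools, 622.56 and 523.02 in the queen-less pools and 963.01 and 1058.25 in the queen-right pools. The queen and queen-less pools overlapped, and all 4 lay well below both queen-right pools. The means were 538.1 ± 13.3 RPKM in queens, 572.8 ± 70.4 RPKM in queen-less workers and 1010.6 ± 67.3 RPKM in queen-right workers (SD, n = 2 each), and the queen and queen-less means were closer than the spread of the queen-less pools.

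Queens had less orb RNA than queen-right workers, with a log2 fold change of -0.71 (SE 0.14, 95% interval -1.03 to -0.39), or 0.613-fold (interval 0.491 to 0.764). The limma adjusted p was 0.00225, and both queen pools were below both queen-right pools. This contrast uses the queen-right libraries on which the gene was also chosen. Queens also lay close to queen-less workers, with 130 of 8778 entries called between them. The choice of orb for not rising thus bears on this contrast too, and the p-value is given as a description. Of all 8778 entries tested, 40.6% were lower and 31.3% higher in queens than in queen-right workers, so a lower value is common in this comparison. For queen-less minus queen-right workers the log2 fold change was -0.63 (SE 0.14, interval -0.95 to -0.31), or 0.646-fold. Here 37.0% of the entries were lower and 30.6% higher in queen-less workers, and since the choice of orb used this contrast nothing is read from its place in it. The difference between queens and queen-less workers was -0.08 (SE 0.14, interval -0.40 to 0.24, limma adjusted p = 0.814), so a queen level lower by up to 0.40 or higher by up to 0.24 on the log2 scale lies within the interval. In that contrast 1.40% of the entries were lower and 0.0797% higher in queens. It uses the queen-less libraries of the choice, so its p-value too is given as a description.

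The fall of orb is one of level and hardly one of rank. It ranked 41 and 43 in the queen pools, 32 and 42 in the queen-less pools and 37 and 39 in the queen-right pools. The entry at rank 40 stood at 548.0 and 547.0 RPKM in queens, 568.3 and 533.4 RPKM in queen-less workers and 925.4 and 1056.9 RPKM in queen-right workers. The entry at this rank was thus higher in RPKM in the queen-right libraries too, and orb lay close to it in each pool. When all libraries were given the same distribution (quantile normalization), the log2 fold change of orb was -0.08 between queens and queen-right workers, with a limma adjusted p of 0.583, and 0.03 between queen-less and queen-right workers, where its sign turned. Under each of the other 17 alternatives both log2 fold changes stayed below 0.

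Markers of muscle, fat body and haemocytes were lower in the active ovaries, the same direction as orb, while most follicle cell markers were higher. The 4 muscle markers matched (Mlc2, TpnI, TpnT and Mp20) summed to 27.5 and 16.19 RPKM in the queen pools, 163.3 and 133.2 RPKM in the queen-less pools and 2243 and 2846 RPKM in the queen-right pools. The 6 fat body markers, among them the vitellogenin gene Vg, summed to between 12.93 and 35.63 RPKM in queens, 39.32 and 49.79 RPKM in queen-less workers and 1238 and 1579 RPKM in queen-right workers. The 3 haemocyte markers summed to between 1.5 and 1.95 RPKM in queens, 2.42 and 2.78 RPKM in queen-less workers and 16.29 and 17.3 RPKM in queen-right workers. All 13 of these markers passed the limma threshold as lower in queens and in queen-less workers than in queen-right workers, and none was at 0 in any library. Of 6 follicle cell markers, 4 were higher and 2 lower in both comparisons, and they summed to between 496.5 and 523.7 RPKM in queens, 325.4 and 461.2 RPKM in queen-less workers and 151.1 and 186.0 RPKM in queen-right workers. The part of these cell types in the values of orb, nanos and egl was not tested, and in bulk ovaries fewer cells of a type and less RNA per cell cannot be told apart.

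nanos stood at about the same level in the 3 kinds of ovary. Its RPKM was 28.15 and 22.56 in the queen pools, 25.59 and 18.55 in the queen-less pools and 21.63 and 27.88 in the queen-right pools. The groups overlapped in full, and the 2 pools of a group differed by a factor of 1.25 in queens, 1.38 in queen-less workers and 1.29 in queen-right workers. The means were 25.35 ± 3.95 RPKM in queens, 22.07 ± 4.98 RPKM in queen-less workers and 24.75 ± 4.42 RPKM in queen-right workers (SD, n = 2 each), none apart from the next by more than its spread.

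On the scaled log2 scale nanos differed by 0.24 between queens and queen-right workers (SE 0.19, interval -0.21 to 0.68, limma adjusted p = 0.296) and by 0.21 between queens and queen-less workers (SE 0.19, interval -0.24 to 0.66, limma adjusted p = 0.623). Neither passed the threshold. Both contrasts use worker libraries on which nanos was chosen for not rising, so their p-values are given as a description. The intervals allow a queen level of up to 1.61-fold that of queen-right workers and do not show that the levels are equal. For queen-less minus queen-right workers, the contrast used in the choice, it was 0.03 (SE 0.19, interval -0.42 to 0.47). The result for nanos depended on the scaling. In 1 alternative the trend of each library with the length of the deposited region was removed. The queen difference from queen-right workers was then 0.79 with a limma adjusted p of 0.00818, and the queen-less difference from queen-right workers was 0.51. The nanos entry is the shortest of the 3, with a region of 737 bp, and the current RefSeq gene model (assembly Amel_HAv3.1) spans 7372 bp, so reads outside the deposited region may not be in its RPKM.

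egl, the transport adaptor, had the lowest and the narrowest range of RPKM. Its RPKM was 18.13 and 18.98 in the queen pools, 17.59 and 16.66 in the queen-less pools and 15.19 and 20.59 in the queen-right pools. Both queen pools were above both queen-less pools, and the 2 queen-right pools enclosed all others. The highest of the 6 values was 1.36 times the lowest, against 1.52 times for nanos and 2.02 times for orb. The means were 18.55 ± 0.601 RPKM in queens, 17.12 ± 0.658 RPKM in queen-less workers and 17.89 ± 3.82 RPKM in queen-right workers (SD, n = 2 each).

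After the authors' scaling the queen-right values of egl were 13.5 and 17.5, against 18.3 and 19.1 in queens and 17.5 and 16.8 in queen-less workers, and the queen pools were then the highest. The log2 difference was 0.26 between queens and queen-right workers (SE 0.16, interval -0.10 to 0.63, limma adjusted p = 0.161) and 0.12 between queens and queen-less workers (SE 0.16, interval -0.25 to 0.48, limma adjusted p = 0.749). Between queen-less and queen-right workers it was 0.15 (SE 0.16, interval -0.22 to 0.51). The first of these passed the threshold under trimmed mean of M values scaling (0.46, limma adjusted p = 0.0340) and without queen-right worker replicate 2 (0.44, limma adjusted p = 0.0410). The queen-less difference was -0.05 in unscaled RPKM and -0.03 without queen-right worker replicate 1, so its sign depends on the scaling and on that pool. The queen contrasts use worker libraries on which egl was chosen for not rising, so their p-values are given as a description.

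A minority of the tested entries differed as little as nanos or egl. Entries without any call were more frequent: with the authors' scaling, limma called 2080 of the tested entries (23.7%) in no comparison. Neither nanos nor egl was called in the comparisons with queens, and their contrast of queen-less with queen-right workers was not tested. The largest absolute log2 fold change over the 3 comparisons was 0.24 for nanos, and 8.58% of the tested entries had one that was as small or smaller. For egl it was 0.26, with 10.2% of the entries at or below it, and for orb it was 0.71, with 36.9%. As nanos and egl were chosen for not rising, these shares place them and test nothing.

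**Figure D2:**
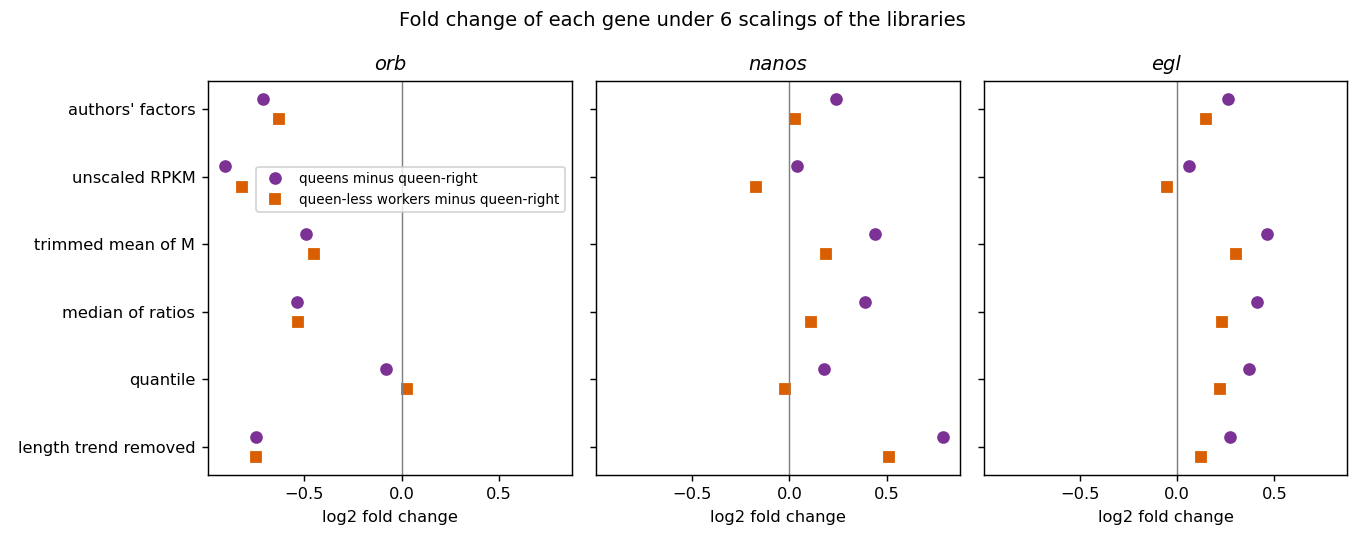
Log2 fold change (horizontal axes) of orb, nanos and egl under 6 ways of scaling the libraries (rows); circles are queens minus queen-right workers and squares queen-less minus queen-right workers, and the grey line marks 0. The orb values lie between -0.91 and -0.45 except under quantile normalization (-0.08 and 0.03), and the nanos values reach 0.79 and 0.51 when the trend with the length of the deposited region was removed.

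Each of the 3 genes can be set against a partner or relative in the same library, which is free of the scaling. The first pair is orb and orb2, which encodes the other CPEB protein. The ratio of orb to orb2 was 41.0 and 42.1 in queens, 56.8 and 50 in queen-less workers and 129 and 118 in queen-right workers. The ratio was lowest in queens, and the 3 groups did not overlap. Because orb was chosen for not rising and orb2 rises, the choice itself lowers this ratio in queen-less workers. Queens lay close to queen-less workers, so nothing is read from the ratio in either group. orb2 itself was at 13.36 and 12.56 RPKM in queens, 10.96 and 10.46 RPKM in queen-less workers and 7.46 and 8.94 RPKM in queen-right workers, and it rose by 0.81 in queens (limma adjusted p = 0.00258) and by 0.54 in queen-less workers (limma adjusted p = 0.0178) relative to queen-right workers on the log2 scale.

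Against vas, the RNA helicase that marks germ cells, orb had 2.88 and 3.84 times the RPKM in queens, 3.22 and 2.60 times in queen-less workers and 51.9 and 63.3 times in queen-right workers. The same ratio for nanos was 0.148 and 0.164 in queens, 0.132 and 0.0923 in queen-less workers and 1.17 and 1.67 in queen-right workers. For egl it was 0.0953 and 0.138 in queens, 0.0910 and 0.0829 in queen-less workers and 0.819 and 1.23 in queen-right workers. As the 3 genes were chosen for not rising and vas rises, the choice itself lowers these ratios in queen-less workers, and nothing is read from them. vas itself was higher by 3.33 in queens and 3.60 in queen-less workers than in queen-right workers on the log2 scale (limma adjusted p = 3.69e-06 and 4.97e-06). For egl and its transport partner BicD the ratio was 0.412 and 0.537 in queens, 0.600 and 0.517 in queen-less workers and 0.686 and 0.861 in queen-right workers. The ratio of nanos to pum, the gene of its RNA-binding partner Pumilio, was 0.568 and 0.505 in queens, 0.481 and 0.347 in queen-less workers and 0.495 and 0.877 in queen-right workers. Only the last of these ratios had overlapping groups between active and queen-right ovaries. BicD and pum also rise, while egl and nanos were chosen for not rising. The choice itself thus lowers the ratios to BicD and pum too, and nothing is read from them.

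**Figure D3:**
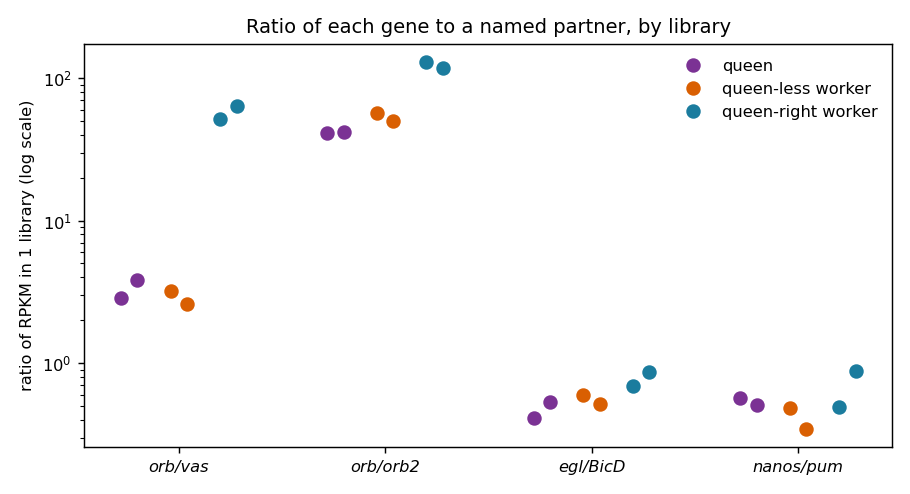
Ratio of RPKM within 1 library (vertical axis, log scale) for orb to vas, orb to orb2, egl to BicD and nanos to pum; each point is 1 library, with queens, queen-less workers and queen-right workers from left to right in each set. The ratio of orb to vas was between 2.60 and 3.84 in the active ovaries and 51.9 and 63.3 in the queen-right ovaries, while the ratios of nanos to pum overlap.

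The genes that work around egl, orb and nanos in Drosophila were counted from 3 lists. Each list was planned with more genes, and only those matched are counted. For mRNA transport 12 genes were matched and all were tested. In queens 6 were higher and 3 lower than in queen-right workers, with a median log2 fold change of 0.28, against 31.3% higher, 40.6% lower and a median of -0.19 for all entries. In queen-less workers 6 were higher and 2 lower, with a median of 0.28, against 30.6% higher, 37.0% lower and a median of -0.13 for all entries. BicD, which joins Egalitarian to the motor, was at 43.97 and 35.34 RPKM in queens, 29.33 and 32.23 RPKM in queen-less workers and 22.15 and 23.92 RPKM in queen-right workers. It was higher by 0.95 in queens (limma adjusted p = 0.000538) and by 0.59 in queen-less workers (limma adjusted p = 0.00640). Lis-1, a regulator of dynein, was lower in queens by a log2 fold change of -0.38 (limma adjusted p = 0.0246), and its value in queen-less workers was -0.21 (limma adjusted p = 0.162). stau, which encodes the double-stranded RNA-binding protein Staufen, was higher in queen-less workers by 0.34 (limma adjusted p = 0.0269), with a value of 0.26 in queens (limma adjusted p = 0.0652). The genes lower in both comparisons were robl, a dynein light chain gene, and mago, a gene of the exon junction complex.

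The list of oocyte translation control held 9 tested genes, vas (the germline marker above) among them, of which 8 were higher in queens and 8 in queen-less workers than in queen-right workers, and none lower, also at an unadjusted limma p under 0.05. Over all entries 31.3% were higher and 40.6% lower in queens, and 30.6% higher and 37.0% lower in queen-less workers. The list's median log2 fold change was 1.64 in queens and 1.42 in queen-less workers. In the list, heph was the gene that did not pass, with log2 fold changes of 0.01 and 0.26. BicC, which encodes an RNA-binding regulator of oocyte patterning, had 278.86 and 277.00 RPKM in queens, 267.26 and 263.97 RPKM in queen-less workers and 46.20 and 21.67 RPKM in queen-right workers. Its log2 fold changes were 3.29 in queens (limma adjusted p = 5.36e-05) and 3.22 in queen-less workers (limma adjusted p = 7.90e-05). Fmr1, the gene of the fragile X protein, a translational repressor, was higher by 0.93 (limma adjusted p = 0.000246) and 0.97 (limma adjusted p = 0.000243) in the same comparisons. The list spans log2 fold changes between 0.01 and 4.34 in queens, and orb, at -0.71, lay outside that range. As orb was chosen for not rising, the choice itself favours such a place, and nothing is read from it.

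The third list held 7 genes of Nanos partners and of deadenylation, the removal of poly(A) tails, with AGO1 and Nup154 as germline stem cell partners. Of the 7, 5 were higher in queens and 5 in queen-less workers than in queen-right workers, Nup154 among both counts. None was lower, at an adjusted or an unadjusted limma p under 0.05. Over all entries 31.3% and 30.6% were higher and 40.6% and 37.0% lower at the adjusted p. The list's medians were 0.56 in queens and 0.70 in queen-less workers. pum was at 49.52 and 44.68 RPKM in queens, 53.19 and 53.49 RPKM in queen-less workers and 43.70 and 31.78 RPKM in queen-right workers, with both active groups above both queen-right pools. Its log2 fold changes were 0.53 in queens (limma adjusted p = 0.0236) and 0.70 in queen-less workers (limma adjusted p = 0.00771). brat, which encodes a further partner of Nanos and Pumilio, was higher by 1.08 (limma adjusted p = 0.00164) and 1.23 (limma adjusted p = 0.000973), at levels of up to 7.05 RPKM. CNOT1, the scaffold of the CCR4-NOT deadenylase, was higher by 2.10 (limma adjusted p = 3.10e-06) and 1.89 (limma adjusted p = 6.80e-06). The deadenylase gene twin was among those that did not pass, with -0.24 (limma adjusted p = 0.247) and 0.03 (limma adjusted p = 0.877).

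Over the 3 lists together, 19 of 28 genes were higher in queens and 19 in queen-less workers than in queen-right workers, against 31.3% and 30.6% of all entries, and 3 and 2 were lower, against 40.6% and 37.0%. Between queens and queen-less workers limma called none of the 28, and 1 (BicD, higher in queens by 0.36) had an unadjusted p under 0.05. Both contrasts with queen-right workers share those libraries, so they are not separate evidence. The lists were chosen with earlier results of these data known and describe the surroundings of the 3 genes. Whether orb, nanos or egl differ from the lists was not tested.

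**Figure D4:**
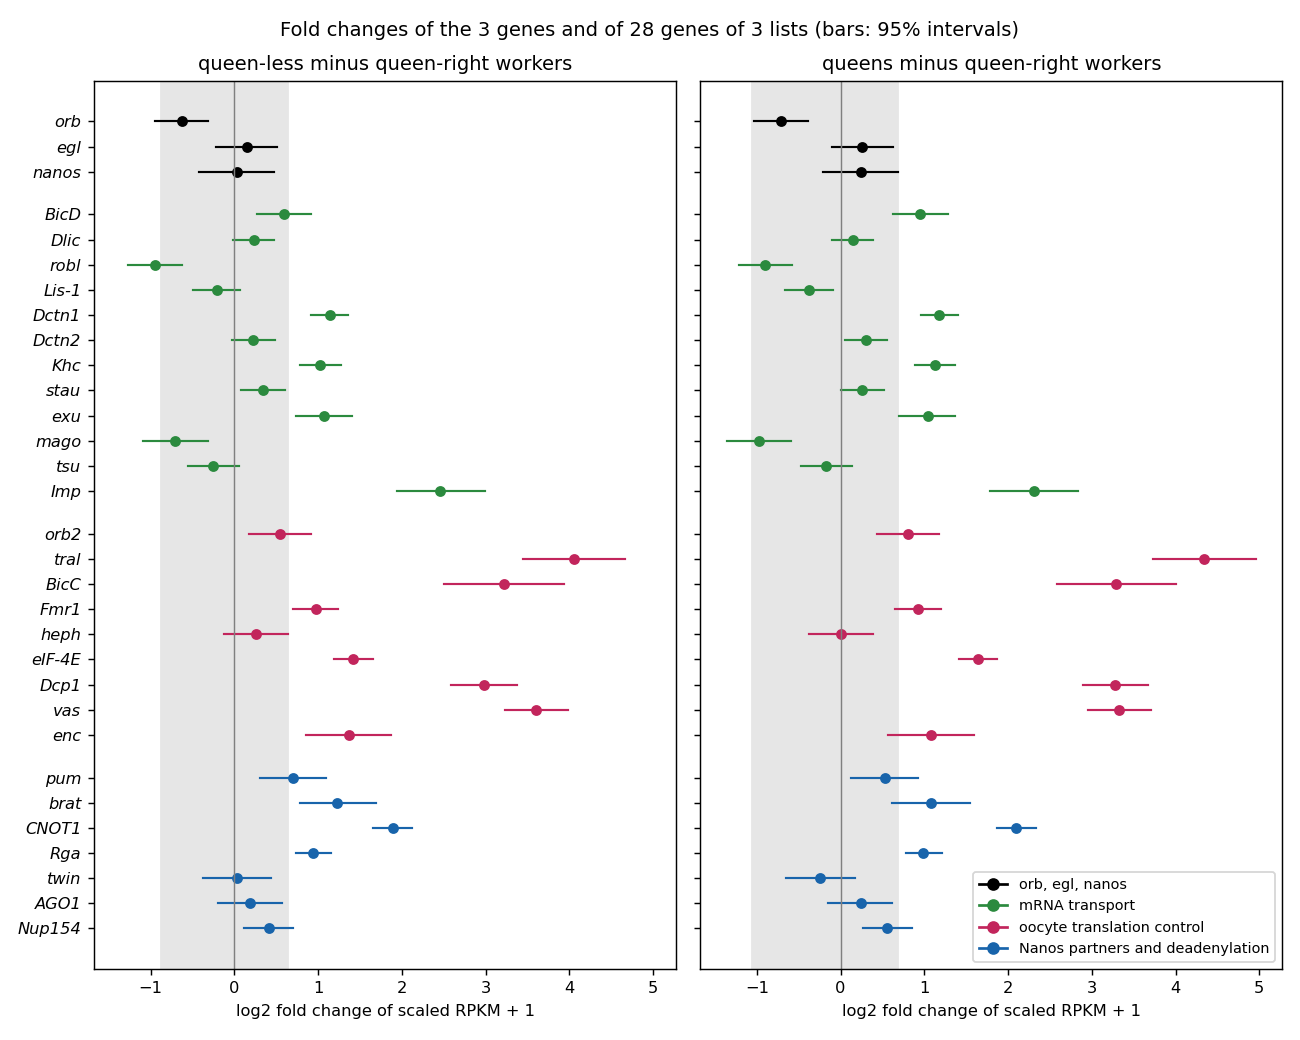
Log2 fold change with its 95% interval (horizontal axes, same range in both panels) of orb, egl and nanos (black) and of the 28 tested genes of 3 lists (colours), for queen-less minus queen-right workers (left) and queens minus queen-right workers (right); the grey band holds the middle 50% of all 8778 entries. Most genes of the lists lie right of 0, up to 4.34 for tral in queens, while orb lies left of it (quantile normalization turned its queen-less value to 0.03) and egl and nanos have intervals that include it.

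Genome position was taken from the deposited table, whose assembly is not named in the sources used here. orb is at 1210423 to 1219182 of scaffold NW_003377909 (8760 bp), nanos at 125495 to 126231 of scaffold NW_003377892 and egl at 780392 to 784042 of scaffold NW_003377978 (3651 bp). No other entry overlaps any of them. The region of LOC550920 ends 198 bp before orb, and this entry was higher in queen-less workers by 0.48 (limma adjusted p = 0.0136), with 0.09 in queens (limma adjusted p = 0.575). LOC100576735, 1455 bp after orb, was lower by a log2 fold change of -1.65 in queens (limma adjusted p = 0.000438) and -1.20 in queen-less workers (limma adjusted p = 0.00258), at means of 1.48 RPKM in queens, 2.40 RPKM in queen-less workers and 7.96 RPKM in queen-right workers. The neighbours of orb thus moved in unlike directions in queen-less workers.

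Beside egl, LOC100578726 (1940 bp after it) was at a mean of 62.0 RPKM in queens, 49.2 RPKM in queen-less workers and 11.9 RPKM in queen-right workers. It was higher by 2.51 in queens (limma adjusted p = 2.73e-05) and by 2.17 in queen-less workers (limma adjusted p = 7.18e-05). The neighbour on the other side, LOC412467, had log2 fold changes of 0.02 in queens (limma adjusted p = 0.864) and -0.05 in queen-less workers (limma adjusted p = 0.739). Beside nanos, LOC551432 had -0.39 in queens (limma adjusted p = 0.0701) and -0.29 in queen-less workers (limma adjusted p = 0.164), and LOC100576310 was too low to be tested.

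The entries with the most similar course over the 6 libraries were found by the root mean square difference of centred log2(RPKM + 1) profiles. For orb these were Ndufs3 (0.025), LOC552654 (0.040) and mRpL27 (0.043). Ndufs3 was at 68.25 and 64.81 RPKM in queens, 74.58 and 66.06 RPKM in queen-less workers and 120.03 and 132.91 RPKM in queen-right workers. Such a course was widespread, since 1090 entries lay within 0.2 of orb. For nanos the nearest were LOC551375 (0.061), LOC726944 (0.078) and LOC411215 (0.081), and 353 entries lay within 0.2. For egl they were LOC409373 (0.045), LOC552006 (0.045) and LOC410297 (0.053), with 960 entries within 0.2. With 6 libraries in 3 groups such likeness rests on few points, so it is given as a description.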

How the data were processed

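The values are RNA-seq of 6 pooled ovary libraries, assigned to groups by their labels. The authors deposited RPKM per entry and library, and a normalized signal that equals RPKM + 1 times 1 factor per library. The factors were recovered as the median ratio of that deposited signal to RPKM + 1. The aligner, the counting program and the assembly are not given in the sources used here. A total of 12 other columns with values of single libraries, the group means and the authors' adjusted p-values of the 3 comparisons were not used. Of the gene IDs, 8962 matched the RefSeq table of Amel_HAv3.1, used for names and gene spans.

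The 8778 of 11169 entries that reached 1 RPKM in 2 or more libraries were tested with limma 3.58.1 (R 4.3.3) on log2 of RPKM + 1 after scaling, with a variance trend, all 6 libraries and Benjamini-Hochberg adjustment. This scale understates changes of low entries. Levels, ranks and ratios were computed in Python 3.11.15. The code of the test was checked on simulated data with equal noise for all genes and few changed genes. The real data differ in both, so that check covers the code and not the adjusted p-values given here. Relative depth came from values between 0.3 and 1.0 RPKM.

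The 3 genes and the lists were chosen with earlier results of these data known. Named genes were fixed by name: the 3 genes, their nearest entries on the scaffold, the 3 most similar entries each, and set members of the lists. Of these, Dhc64C, aret, cup, me31B, smg and Pop2 were not analysed here, and wisp (Gld2) and aub were left out because their symbols stand on 2 entries. heph, robl, mago and tral were named after their values were seen. Labels do not say whether pools came from separate colonies, so p-values measure only the spread between pools. Numbers of pools did not pair the samples (correlations of same-numbered deviations -0.129, -0.086 and 0.061). Alternatives covered scaling, pseudocount, filter, threshold, variance trend, libraries in the fit, the replicate block and each library left out.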

Additional observations from a re-analysis of the deposited data

How the results depend on the processing

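Under 18 alternatives for orb, the difference between queens and queen-right workers ranged from -0.91 to -0.08 and passed the threshold except under quantile normalization (-0.08) and with a required log2 fold change of at least 1 (-0.71). Between queen-less and queen-right workers orb was -0.82 in unscaled RPKM, -0.45 with trimmed mean of M values, -0.53 with median of ratios, -0.75 with the length trend removed and 0.03 after quantile normalization. For nanos, removal of the length trend gave 0.79 in queens and 0.51 in queen-less workers, and for egl trimmed mean of M values gave 0.46 and 0.30 and unscaled RPKM -0.05 in queen-less workers. Between queens and queen-less workers orb turned to 0.0017 with the length trend removed.

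With 1 library left out, orb was between -0.74 and -0.67 for queens and between -0.74 and -0.52 for queen-less workers, both against queen-right workers, nanos between 0.08 and 0.39 and between -0.18 and 0.24, and egl between 0.09 and 0.44 and between -0.03 and 0.32. For queens against queen-less workers these ranges were -0.19 to 0.04 for orb, where the sign turned without queen-less worker replicate 1, -0.0022 to 0.42 for nanos, where it turned without queen-less worker replicate 2, and 0.09 to 0.15 for egl. A lone pool was assumed to vary like the others.

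The entries called were 5930 between queen-less and queen-right workers (4927 to 5644 with 1 library left out, 3301 with a log2 fold change of at least 1), 6305 between queens and queen-right workers (5443 to 6217 and 3871) and 130 between queens and queen-less workers (35 to 85). The last count was 82 with quantile normalization, 40 with no filter, 42 with only the 4 libraries compared and 72 with the replicate block. The replicate block changed no call of orb, nanos or egl.

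In the mRNA transport list, 4 genes were lower in queen-less workers in unscaled RPKM and 4 with quantile normalization, and with a log2 fold change of at least 1 there were 0 lower in queen-less workers and 0 in queens. With 1 library left out 2 to 4 were lower in queen-less workers. Its median was 0.09 (unscaled) and 0.46 (trimmed mean of M values) in queen-less workers, and 0.08, 0.50, 0.44 (median of ratios) and 0.42 (length trend removed) in queens. The median of the translation control list was 1.23 (unscaled) and 1.24 (quantile) in queen-less workers, with 1.37 to 1.73 when 1 library was left out, and 1.44, 1.86 (trimmed mean of M values) and 1.46 in queens. For the Nanos partners, 2 genes were higher in queen-less workers and 2 in queens with a log2 fold change of at least 1, and 1 was lower in queens in unscaled RPKM. Their median was 0.51 (unscaled), 0.86 (trimmed mean of M values) and 0.50 (quantile) in queen-less workers, 0.45 to 0.93 with 1 library left out, and 0.36, 0.77, 0.71 (median of ratios) and 0.80 (length trend removed) in queens, 0.56 to 0.79 with 1 library left out. The cause was not tested. With 2 pools per group and unknown absolute depth, differences smaller than the intervals given for nanos and egl could not be detected.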

Other observations

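A further group of 15 genes was chosen from the symbols of the table before their values were seen. Most are genes of RNA granules, where stored mRNA is kept or degraded. The group also held capu, spn-F and vls, whose products are not known chiefly as granule components. Of the 15, 11 were higher in queens than in queen-right workers and 10 in queen-less workers, capu and spn-F among both counts. None was lower (0 also at an unadjusted limma p under 0.05), and the medians were 0.98 and 0.88 on the log2 scale. Over all entries 31.3% were higher and 40.6% lower in queens, and 30.6% higher and 37.0% lower in queen-less workers. In unscaled RPKM, and likewise with quantile normalization, 1 of the 15 was lower in each comparison with queen-right workers, and with a log2 fold change of at least 1 there were 7 higher in queens and 6 in queen-less workers. yps, whose Y-box protein is found with Orb in Drosophila, was at 1446.87 and 1421.49 RPKM in queens, 1511.79 and 1408.32 RPKM in queen-less workers and 782.93 and 595.03 RPKM in queen-right workers. It was higher by 1.27 in queens (limma adjusted p = 0.000556) and by 1.29 in queen-less workers (limma adjusted p = 0.000616). Its partner orb was lower under the same scaling. Under quantile normalization orb was -0.08 in queens and 0.03 in queen-less workers, both against queen-right workers. As orb was chosen for not rising, nothing is read from the unlike directions of the 2 genes. larp, the gene of a La-related protein that binds mRNA, had means of 117, 115 and 25.4 RPKM in queens, queen-less workers and queen-right workers, and log2 fold changes of 2.37 (limma adjusted p = 4.67e-06) and 2.33 (limma adjusted p = 8.23e-06).

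Among the genes named for decapping, Ge-1, a scaffold of the decapping complex, was higher by 2.03 in queens (limma adjusted p = 3.74e-06) and by 1.92 in queen-less workers (limma adjusted p = 7.05e-06), and Patr-1, a decapping activator, by 1.30 (limma adjusted p = 3.13e-05) and 1.25 (limma adjusted p = 5.11e-05). Dcp1, the cofactor of the decapping enzyme and counted above with translation control, was higher by 3.28 (limma adjusted p = 4.07e-06) and 2.98 (limma adjusted p = 8.50e-06). Dcp2, the decapping enzyme, did not pass the threshold and stood at 46.5 RPKM in queens, 41.5 RPKM in queen-less workers and 45.6 RPKM in queen-right workers, with log2 fold changes of 0.23 (limma adjusted p = 0.0963) and 0.06 (limma adjusted p = 0.630). The cap-binding repressor gene 4EHP had 0.24 (limma adjusted p = 0.103) and 0.21 (limma adjusted p = 0.154). Between queens and queen-less workers limma called none of the 15, and 1 (spn-F) had an unadjusted p under 0.05. Which of them to name was decided with their values in view.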
